A study of Homo sapiens with 8 samples.

Results

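Guide 2 against ZRSR2 was compared with the non-targeting guides in SET-2 cells, a human line taken from an essential thrombocythemia in megakaryoblastic leukemic transformation. The libraries were chosen by their labels, which gave 6 of the 8 libraries of the series: 2 from cells with ZRSR2 guide 2 and 4 from cells with a non-targeting guide. The series title places the work in neoplasms driven by JAK2V617F, the activated allele of the kinase JAK2. All groups were the same line, had received a PLKO5 GFP virus carrying a guide, and differed in that guide. The guide 2 arm, labelled ZRSR2 KO, had 1 library in each of 2 experiments. The control arm had non-targeting guides 1 and 2, each with 1 library per experiment. The 2 libraries with ZRSR2 guide 1 entered the comparison between the guides. Per the protocol, RNA of biological replicate 1 was taken on day 20 after transduction and that of replicate 2 on day 25. Equating these replicates with the numbered experiments is an assumption, and experiment, day and any batch cannot be told apart. The nuclease, and whether cells were pooled or cloned, are not given in the sources used here. Nothing in the labels says that libraries of one experiment were separate cultures, so p-values measure the spread between these libraries.

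ZRSR2 is a splicing factor that helps to recognise the end of U12-type introns, a rare class removed by the minor spliceosome, a machine with its own small nuclear RNAs and partner proteins. ZRSR2 lies on the X chromosome and is mutated in myeloid neoplasms. An intron that stays in a transcript can lower the level of the mature message or send it to decay, although counts per gene do not show the splicing of any single intron.

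The guide and its target are shown because the position of the expected break bears on the reading of the ZRSR2 counts. Guide 2 matched the sense strand of ZRSR2 without a mismatch at chrX:15815821-15815840 of GRCh38. The site lay in exon 8 of 11, which spans positions 15815677 to 15815890. Its AGG motif, the PAM that the common Cas9 enzyme needs next to a target, is in capitals after the guide. The target is in capitals within the transcript around it, chrX:15815781-15815880 on the plus strand.
ZRSR2 guide 2 with PAM: acagttcctagacttctatgAGG
ZRSR2 exon 8 around the target: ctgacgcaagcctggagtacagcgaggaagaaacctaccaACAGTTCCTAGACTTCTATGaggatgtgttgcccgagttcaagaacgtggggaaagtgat
The position 3 bases before the PAM, where Cas9 usually cuts, followed coding base 718, in codon 240 of 482. Thus 49.7% of the coding sequence lay before it, and the end of the guide was 50 bases from the end of the exon. ZRSR2 guide 1 matched exon 1 and ended 2 bases before the end of that exon, so its PAM was not read in full. The position 3 bases before the end of guide 1 followed coding base 36, in codon 12, with 2.5% of the coding sequence before it. The 2 guides therefore differed in how much of the coding sequence precedes the break.

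Transcripts of GENCODE 29 were also searched for near matches of guide 2, with at most 3 mismatches and followed by NGG. The site below is shown because it was the closest, in the ZRSR2 pseudogene ZRSR2P1, which lies within the gene of SRP19, a protein of the signal recognition particle. Its mismatch, C13T counted from the 5′ end of the guide, is in capitals.
ZRSR2P1 and SRP19, chr5:112892356-112892375: acagttcctagaTttctatg
SRP19 was at 22.9 CPM (counts scaled to the size of the library, with TMM factors) with guide 2 and 20.2 and 19.8 CPM in the controls of experiment 1. In experiment 2 it was at 12.8 CPM with guide 2 and 12.7 and 12.4 CPM in the controls. The arms overlapped, with a log2 fold change of 0.11 ± 0.11 (SE) and an unadjusted edgeR p of 0.317. CD209, a lectin of dendritic cells, held a site with C13T and A18G, and had 0 to 2 counts in each of the 6 libraries. KCNA10, a potassium channel, held one with A1T, G4T and A18C and had 0 counts in all 6, so neither gave a readable level. Introns and sequence between genes were not searched.

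The 6 libraries held between 31106042 and 71521173 expected counts, and 17795 to 18398 genes with a count. The largest total belonged to non-targeting guide 1 of experiment 2. This control was set apart from the others in its total and its number of genes with a count. It was not set apart in the CPM of any named gene looked at in the same way. Where edgeR called a gene described here without this control but not with all 6 libraries, that value is given beside the gene. Such a fit has 1 control in experiment 2, so the difference between the 2 controls of that experiment does not enter its spread. Of 17 megakaryoblast markers, 16 exceeded 1 CPM in all 6 libraries, and GP1BB, a subunit of the platelet von Willebrand factor receptor, was at 0. Their summed level was 6050 to 7130 CPM with guide 2 and 6460 to 7980 CPM in the controls. Markers of other blood cells summed to 240 to 245 CPM against 232 to 322 CPM, with 2 of 11 above 1 CPM in all 6 libraries and MS4A1 at 0. Markers of non-blood cells summed to 135 to 154 CPM against 133 to 157 CPM, with 2 of 8 above 1 CPM and KRT5 and KRT14 at 0. Most of that sum was PECAM1, at 110.1 to 141.2 CPM, which platelets and megakaryocytes also express. In bulk RNA, fewer cells of a kind and less RNA per cell cannot be told apart.

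ZRSR2 transcript was lower with guide 2 than in any control library. The guide 2 libraries held 22.9 and 18.7 CPM in experiments 1 and 2. The controls were at 37.8 and 39.2 CPM in experiment 1 and 39.5 and 41.5 CPM in experiment 2. The arms did not overlap, and the guide 2 mean of 20.8 ± 2.99 CPM (SD, n = 2) was 52.7% of the control mean of 39.5 ± 1.52 CPM (SD, n = 4). In the edgeR quasi-likelihood fit with the experiment as a block, guide 2 differed from the controls by −0.93 ± 0.12 (log2 fold change, SE), with an unadjusted p of 3.02e-05 and an adjusted p of 0.147, which misses the threshold of 0.05. An exact two-sided permutation test over the 15 splits of 2 against 4 libraries gave p = 0.0667, the smallest it can give. Those splits ignore the experiment, and an exact permutation over the 9 splits with 1 guide 2 library per experiment, added after seeing the data, gave p = 0.111, again the smallest possible. DESeq2 with the same block gave an adjusted p of 6.6e-09, and edgeR with the ZRSR2 guide 1 libraries added gave 0.0309. Without non-targeting guide 1 of experiment 2 the edgeR value was 0.0328. Leaving out any other control instead gave adjusted edgeR p-values of 0.173 to 0.524. The threshold was also missed in edgeR with no count filter (0.246), at least 10 counts in every library (0.256) and the legacy dispersion (0.228). Without the block it was missed as well. A count does not show whether the remaining transcript encodes a whole protein.

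**Figure D1:**
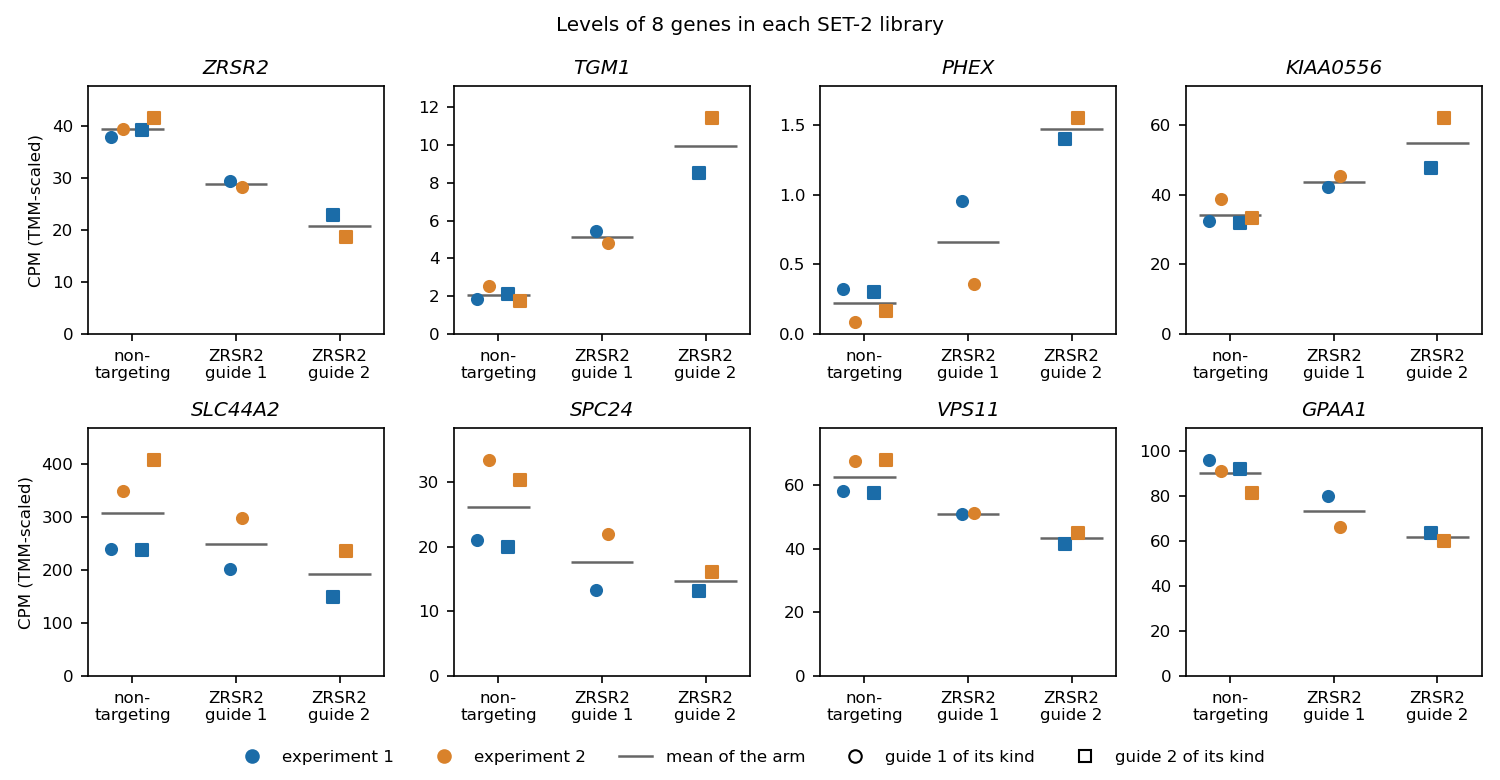
CPM of 8 genes (vertical axes, from 0) in each library, by arm, with colours for the experiment and a line for the mean of each arm. ZRSR2 with guide 2 lay at 18.7 and 22.9 CPM, below all 4 controls at 37.8 to 41.5 CPM, and TGM1 at 8.52 and 11.4 CPM, above controls at 1.75 to 2.52 CPM.

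TGM1, which encodes a transglutaminase that cross-links proteins of the cornified envelope in skin, rose with guide 2. The guide 2 libraries had 8.52 and 11.4 CPM in experiments 1 and 2. Controls were at 1.84 and 2.10 CPM in experiment 1 and 2.52 and 1.75 CPM in experiment 2. The arms were far apart in both experiments: the log2 ratio to the controls was 2.06 in the first and 2.37 in the second. The fit gave a log2 fold change of 2.25 ± 0.17 (SE), a 4.86-fold ratio of the arm means, and an adjusted edgeR p of 0.00947. TGM1 was the 1 gene called among 15281 tested, a called share of 0.00654%. An unadjusted p under 0.05 was reached by 730 genes, or 4.78%: 374 higher (2.45%) and 356 lower (2.33%). A log2 fold change of at least 1 in size was seen in 89 higher genes (0.582%) and 51 lower ones (0.334%). The call was lost without guide 2 of experiment 1 (adjusted p = 0.407), without guide 2 of experiment 2 (0.42) and without the block (0.68), while the log2 fold change stayed between 2.10 and 2.37 in the fits that each left out a guide 2 library.

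Of the 23 listed transglutaminases and cornified envelope proteins, 10 had enough counts to be tested, and TGM1 was the 1 called. Of the 10, 5 were above 0 and 5 below, where 49.6% and 50.4% of all genes were, and their median log2 fold change was −0.02 against −0.001 over all genes. TGM2, the tissue transglutaminase, was at 864.5 and 813 CPM with guide 2 and at 769 to 857 CPM in the controls. Its arms overlapped, with a log2 fold change of 0.02 ± 0.08 (SE). IVL, which encodes the envelope protein involucrin, had too few counts to be tested.

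PHEX, on the X chromosome, encodes a membrane peptidase that acts in phosphate balance and bone mineralisation. It was at 1.40 and 1.55 CPM with guide 2 in experiments 1 and 2. Controls were at 0.323 and 0.304 CPM in experiment 1 and 0.0851 and 0.166 CPM in experiment 2. The arms did not overlap, but the lowest control rested on 6 counts and the highest guide 2 library on 66. Guide 2 over controls gave a log2 fold change of 2.91 ± 0.38 (SE), an adjusted edgeR p of 0.147 and an adjusted DESeq2 p of 6.94e-04. Without non-targeting guide 1 of experiment 2, which held the lowest control level, edgeR gave 2.49 with an adjusted p of 0.0328. A gene on the opposite strand overlaps PHEX, and since the use of strand is not given, reads of the pair cannot be told apart. The same holds for 13 of the 22 genes that matched the annotation, out of 25 chosen by the naming rule.

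Among the other genes chosen by that rule, 11 were lower and 11 higher with guide 2, none past the edgeR threshold with all 6 libraries. Without non-targeting guide 1 of experiment 2, edgeR called 3 of them: SLC44A2 (adjusted p = 0.0214), ZPR1 (0.0344) and KIAA0556 (0.0475). They were taken by smallest unadjusted p among genes of at least 5 CPM in either arm whose arms did not overlap, so their lack of overlap is no result. Over all genes, 339, or 2.22%, lay below the controls without overlap and 421, or 2.76%, above. The adjusted edgeR p ran from 0.147 to 0.541 for the lower genes and from 0.248 to 0.702 for the higher ones. DESeq2 called 11 of the lower and 5 of the higher, where it called 0.157% of all genes as lower and 0.072% as higher. It was fitted to the same counts by which these genes were picked, so its calls are no independent evidence.

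The lower genes began with SLC44A2, on chromosome 19, a choline transporter-like protein that also carries a neutrophil antigen. It was at 149.8 CPM with guide 2 against 238.8 and 237.1 CPM in experiment 1, and at 234.8 against 348.7 and 406.5 CPM in experiment 2. The 2 experiments differed in level, but the log2 ratio was −0.67 in one and −0.69 in the other. In the fit this came to −0.68 ± 0.09 (SE), with edgeR's adjusted p at 0.147 and an adjusted DESeq2 p of 2.09e-07.

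SPC24, on chromosome 19, is a subunit of the NDC80 complex that ties kinetochores to microtubules. It was at 13.2 CPM against 21.1 and 19.9 CPM in experiment 1, and at 16.2 against 33.4 and 30.4 CPM in experiment 2 (log2 fold change −0.81 ± 0.12, SE). DESeq2 gave an adjusted p of 2.35e-05 where edgeR gave 0.248, both from the counts by which the gene was picked. VPS11, on chromosome 11, is a core subunit of the complexes that tether vesicles to endosomes and lysosomes. It was at 41.6 CPM against 58.1 and 57.5 CPM, and at 45.0 against 67.6 and 67.9 CPM (log2 fold change −0.53 ± 0.09, SE). GPAA1, on chromosome 8, belongs to the enzyme that attaches GPI anchors to proteins, and was at 63.5 CPM against 95.9 and 92.1 CPM and at 60.0 against 91.3 and 81.4 CPM (−0.55 ± 0.09, SE). For VPS11 and GPAA1, each guide 2 library was about as far below its controls in one experiment as in the other.

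ZPR1, on chromosome 11, encodes a zinc finger protein that shuttles between cytoplasm and nucleus. It was at 69.9 CPM against 103.4 and 106.6 CPM in experiment 1, and at 41.3 against 90.6 and 76.6 CPM in experiment 2. The log2 fold change was −0.79 ± 0.12 (SE), with log2 ratios of −0.59 and −1.01 in experiments 1 and 2. PFDN5, on chromosome 12, a subunit of the prefoldin chaperone for actin and tubulin, was at 108.2 and 94.5 CPM with guide 2 and at 141.4 to 162.7 CPM in the controls. ACTL6A, on chromosome 3, an actin-like subunit of chromatin remodelling complexes, was at 64.8 and 48.3 CPM against 68.8 to 88.1 CPM. The remaining genes of this kind were SSR2 of the endoplasmic reticulum translocon (−0.49), the water and glycerol channel AQP3 (−0.46), the red cell anion exchanger SLC4A1 (−0.45) and the caveolar ATPase EHD2 (−0.36), each given as a log2 fold change.

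The higher genes began with KIAA0556, on chromosome 16, whose product binds katanin at the base of cilia. It was at 47.8 CPM with guide 2 against 32.4 and 31.9 CPM in experiment 1, and at 62.0 against 38.9 and 33.4 CPM in experiment 2. Both guide 2 libraries lay above every control, with a log2 fold change of 0.68 ± 0.10 (SE), an adjusted edgeR p of 0.248 and an adjusted DESeq2 p of 2.07e-04.

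AHCTF1, on chromosome 1, a nucleoporin that starts the assembly of nuclear pores, was at 92.7 and 86.7 CPM against 61.7 to 71.5 CPM (log2 fold change 0.42 ± 0.08, SE). CLCN7, the lysosomal chloride and proton exchanger on chromosome 16, was at 139.3 and 175.4 CPM against 98.6 to 118.3 CPM, with 0.49 ± 0.12 (SE). The other log2 fold changes were 0.78 for LOC100129917, 0.53 for the complement gene C2, 0.51 for LOC150776, 0.51 for the collagen galactosyltransferase COLGALT2, and 0.42 each for the dynein subunit DYNC1LI2 and TIGD1. Apart from TGM1 and PHEX, the named genes of this direction thus differed by less than 2-fold.

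**Figure D2:**
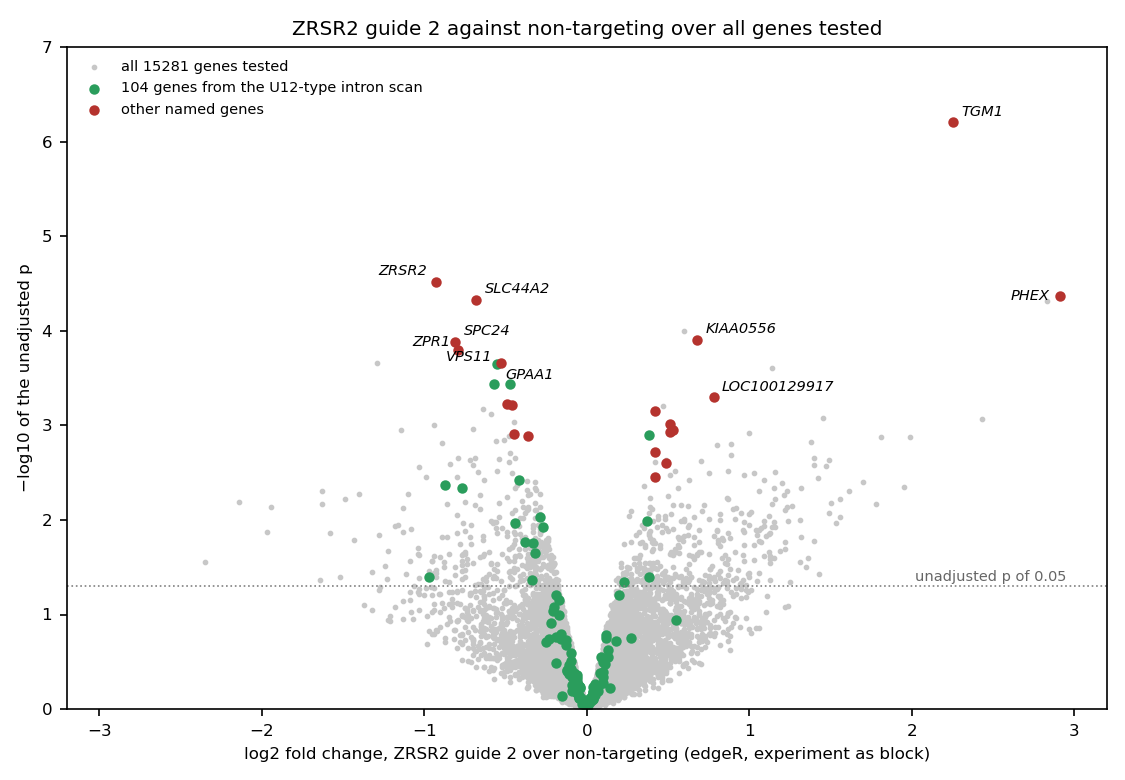
Log2 fold change of guide 2 over non-targeting (horizontal axis) against −log10 of the unadjusted edgeR p (vertical axis) for 15281 genes, with 104 genes of the U12-type intron scan in green and other named genes in red. TGM1 lies at 2.25 with the smallest p, and 14 scan genes against 4 lie above the dotted line on the negative and positive sides.

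DESeq2 with the same block called 35 genes, or 0.229% of those tested, 11 higher and 24 lower. Of these, 3 in each direction changed at least 2-fold. The log2 ratios of all 35 kept one sign over the experiments. Over all 15281 genes, 3448 were lower in both experiments and 3434 higher in both. In 23 of the 35 the arms did not overlap, where 2.22% of all genes lay below the controls and 2.76% above. The 35 were called from these same libraries, so neither the signs nor the lack of overlap is independent evidence. This set took in TNS4, a focal adhesion protein, at 7.06 CPM against 20.7 and 20.9 CPM in experiment 1 and at 30.8 against 49.8 and 81.3 CPM in experiment 2. The log2 fold change of TNS4 was −1.29 ± 0.21 (SE), and its arms overlapped because the experiments differed in level. Without non-targeting guide 1 of experiment 2, edgeR called TNS4 too, at −1.48 with an adjusted p of 0.00279. MMP2, a matrix metalloproteinase, showed the opposite sign, at 63.9 CPM against 41.0 and 43.7 CPM and at 37.0 against 24.0 and 24.8 CPM (0.60 ± 0.09, SE). EXOSC5 of the RNA exosome was at 21.2 and 19.4 CPM against 26.9 to 31.5 CPM (−0.51 ± 0.11, SE).

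TGM1, ZRSR2, TNS4 and SLC44A2, 4 of the 35, were called by DESeq2 whichever library was left out. The number of DESeq2 calls varied widely with the library left out, from 10 without either control of experiment 1 to 170 without non-targeting guide 1 of experiment 2. In edgeR leaving out that same control moved the count from 1 to 33, of which 8 were higher and 25 lower. These calls rest on 1 control in experiment 2, non-targeting guide 2. Leaving out any other control, including non-targeting guide 2 of experiment 2, left TGM1 as the 1 edgeR call. The 2 controls of experiment 2 differed from each other in several genes, of which the 3 given here were chosen after their values were seen. All 3 were among the 33 edgeR calls made without non-targeting guide 1 of experiment 2. Their log2 fold changes in that fit were −1.27 for BNIP3 (adjusted p = 0.0293), −1.08 for P4HA1 (0.0328) and −1.15 for CPA3 (0.00279). BNIP3, a mitochondrial protein of mitophagy, was at 86.1 CPM in non-targeting guide 1 and at 213.2 CPM in non-targeting guide 2, with guide 2 against ZRSR2 at 101.8 CPM. P4HA1, a prolyl hydroxylase of collagen, was at 170.3 and 421.7 CPM, with guide 2 at 166.3 CPM. CPA3, a mast cell carboxypeptidase, was at 82.6 and 253.9 CPM, with guide 2 at 119 CPM. For these genes guide 2 in experiment 2 lay near one of its controls and far from the other, and the part of this difference in the counts of calls was not tested.

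Genes with U12-type introns were read from a list recalled from general knowledge and from a scan of introns. The scan took introns that start with ATATCCTT or GTATCCTT, with at most 1 mismatch, and hold TCCTTAAC near their end. The latter could have 2 mismatches and had to stop between 5 and 40 bases from the last base of the intron. It read the strand of the gene, and the start and end windows do not overlap. Only 31981 of 366888 introns, or 8.72%, could be read, since their bases had to lie within another GENCODE 29 transcript. Of those, 141 introns, or 0.441%, held both motifs, in 119 genes. The ends of introns of 3 of the scan genes with an unadjusted p under 0.05 are shown, as the stretch in which ZRSR2 acts lies there. Each is the last 50 bases of an intron that starts with GTATCCTT, in GRCh38, with the branch match in capitals.
PFDN5, plus strand, chr12:53297800-53297849: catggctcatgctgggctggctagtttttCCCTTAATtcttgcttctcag
ACTL6A, plus strand, chr3:179575353-179575402: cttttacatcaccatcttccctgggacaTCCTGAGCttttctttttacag
TMEM107, minus strand, chr17:8174617-8174666: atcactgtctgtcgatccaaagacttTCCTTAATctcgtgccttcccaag
The introns of PFDN5 and TMEM107 belong to a principal transcript and that of ACTL6A does not. A match describes letters and is not proof of a U12-type intron.

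Of 104 scan genes tested, 64 were lower and 40 higher with guide 2, or 61.5% lower against 50.4% of all genes. None was called by edgeR, with a smallest adjusted p of 0.288, and DESeq2 called 3, all lower, where it called 0.157% of all genes as lower. An unadjusted p under 0.05 was reached by 18, or 17.3%: 14 lower and 4 higher. Among 7294 tested genes with a readable intron outside the scan list, 4.39% reached that p and 52.5% were lower. The median log2 fold change of the scan genes was −0.05, against −0.006 for those other genes. Where the intron belonged to a principal transcript, 42 of 62 genes were lower, or 67.7%, and 21% reached an unadjusted p under 0.05, 11 lower and 2 higher. The typical scan gene therefore stood close to its control level, and the lower values came from some members.

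The members of smallest p included, after GPAA1, PFDN5 and ACTL6A, SLC12A4, a potassium and chloride cotransporter, at 35.3 and 50.8 CPM against 48.5 to 69.9 CPM. TMEM107, a protein of the ciliary transition zone, was at 2.06 CPM against 3.68 and 2.98 CPM in experiment 1 and at 4.53 against 7.30 and 10.9 CPM in experiment 2. Both were below their own experiment's controls, with log2 fold changes of −0.42 ± 0.11 and −0.87 ± 0.23 (SE). CACNA2D2, a subunit of calcium channels, was at 1.38 CPM against 3.23 and 2.71 CPM and at 4.78 against 7.95 and 6.26 CPM (−0.77 ± 0.20, SE). UBL5, a ubiquitin-like splicing protein, was at −0.29 ± 0.09 (SE). In the other direction TAF1C, a factor of RNA polymerase I, was at 97.5 and 92.6 CPM against 58.4 to 88.3 CPM (0.37 ± 0.11, SE).

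Of the 35 recalled U12-type intron genes, all tested, 23 were lower and 12 higher. None passed edgeR with all 6 libraries, DESeq2 called 1 higher and 4 lower, where it called 0.229% of all genes, and 31.4% reached an unadjusted p under 0.05, 8 lower and 3 higher. With 6 genes named in earlier work on these data set aside, 29 remained, of which 17.2% reached that p, 3 lower and 2 higher, and DESeq2 called 0. All 5 DESeq2 calls thus came from the genes set aside. Over all genes that share was 4.78%, and the 6 genes set aside are no independent evidence. The members lower at that p were SPC24, VPS11, GPAA1, EXOSC5, TMEM107, VPS16 of the same tethering complexes as VPS11 (log2 fold change −0.48), the stress kinase MAPK13 (−0.72) and TRAPPC2 of a Golgi tethering complex (−0.32). Those higher included KIAA0556 and the kinase MAPK12 (0.38).

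The minor spliceosome itself was read from 21 proteins, of which 12 were lower and 9 higher, with a median log2 fold change of −0.03. Besides ZRSR2, members with an unadjusted p under 0.05 were CCDC84, a minor spliceosome factor, and SNRNP48 of the U11/U12 particle. With ZRSR2 these made up 14.3% of the list, where 4.78% of all genes reached that p. CCDC84 was at 16.5 and 13.7 CPM with guide 2 against 10.5 to 12.5 CPM (0.38 ± 0.11, SE). SNRNP48 was at 32.2 and 28.8 CPM against 19.1 to 27.7 CPM (0.33 ± 0.12, SE). None of the 11 splice factors commonly mutated in myeloid neoplasms and none of the 19 nonsense-mediated decay factors reached an unadjusted p under 0.05. Of 17 exosome genes, EXOSC5 and EXOSC1 did, both lower, or 11.8%, where 2.33% of all genes were lower at that p.

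The genes beside ZRSR2 were read because the guide cuts in that region. Of the 10 nearest genes on each side in the RefSeq order, 15 of 20 were tested, 9 lower and 6 higher, none called with all 6 libraries, with a median of −0.02. CA5B, a mitochondrial carbonic anhydrase, was at 43.0 CPM against 62.5 and 62.5 CPM in experiment 1 and at 67.6 against 69.97 and 101.6 CPM in experiment 2. REPS2, an endocytosis adaptor, was at 5.595 and 6.10 CPM against 6.30 to 9.45 CPM. These were the 2 members with an unadjusted p under 0.05, both lower, or 13.3% of the 15. Over all genes, 50.4% were lower and 2.33% were lower at that p. Without non-targeting guide 1 of experiment 2, edgeR called CA5B, at −0.56 with an adjusted p of 0.0466.

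**Figure D3:**
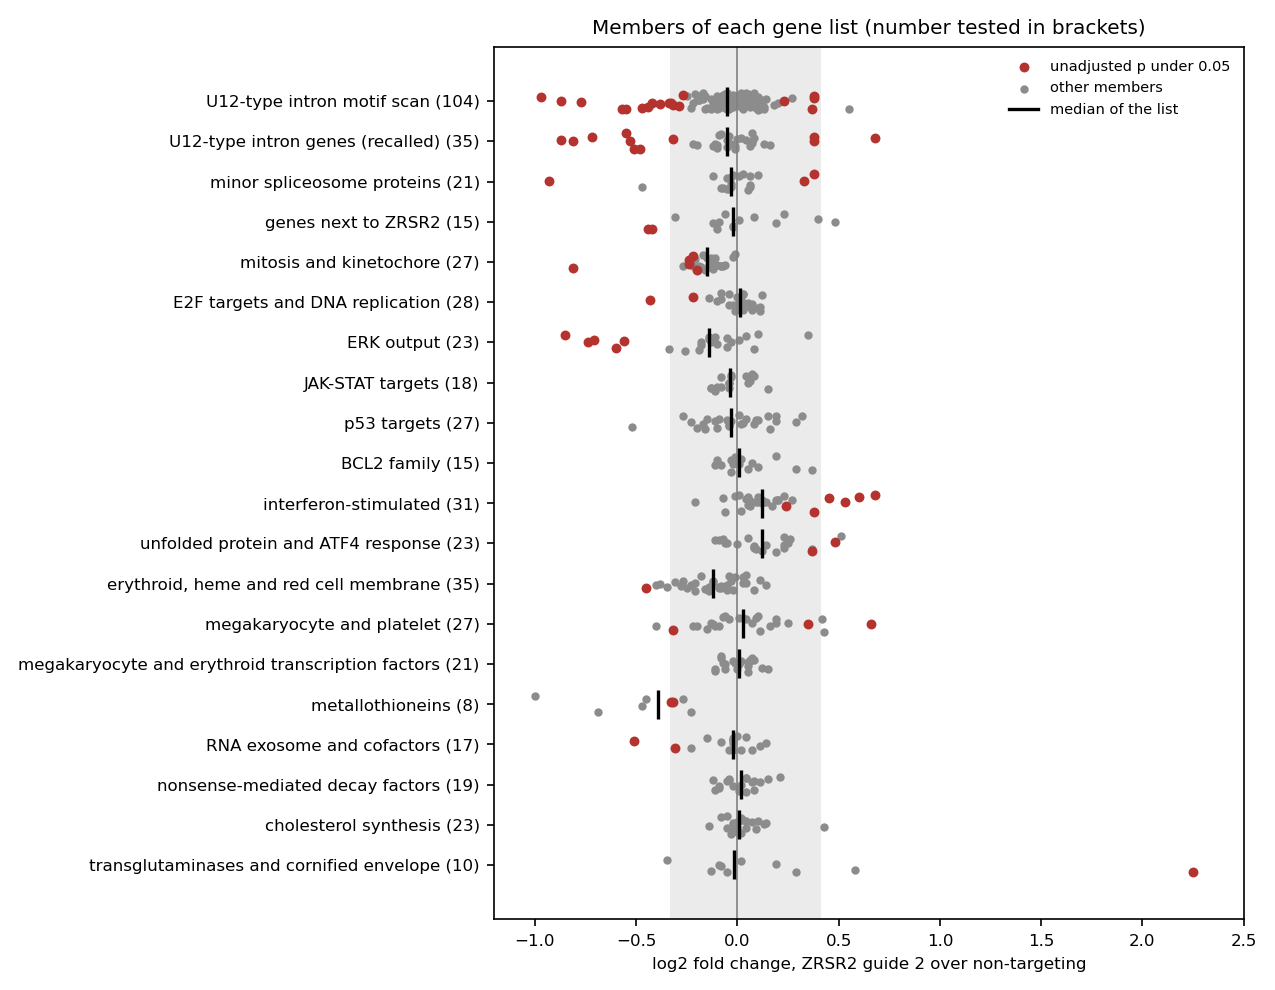
Log2 fold change of guide 2 over non-targeting (horizontal axis) for each tested member of 20 gene lists, with members at an unadjusted p under 0.05 in red, the median of each list as a bar, and the middle 90% of all genes shaded. The mitosis list has all 27 members below 0 and a median of −0.15, and the interferon list has 27 of 31 above 0 and a median of 0.12.

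Genes of mitosis and the kinetochore were all slightly lower: 27 of 27 had a negative log2 fold change, with a median of −0.15 and medians of −0.08 and −0.22 in experiments 1 and 2. Over all genes 50.4% were lower. None was called by edgeR, and 5, or 18.5%, reached an unadjusted p under 0.05, all lower, where 2.33% of all genes did so as lower. Besides SPC24, these included the mitotic kinase PLK1, at 175.3 and 189.1 CPM against 204.6 to 222.1 CPM (−0.24 ± 0.08, SE). AURKA, the spindle pole kinase, was at 68.9 and 66.8 CPM against 76.0 to 84.0 CPM (−0.24 ± 0.08, SE). Both lay below every control, but by less than 1.5-fold. Of the 27 members, 4, or 14.8%, lay below the controls without overlap, where 2.22% of all genes did. SPC24, named under a rule that asked for this, is among the 4. Genes of DNA replication were split, with 18 of 28 higher and 10 lower, with a median of 0.01, and the 2 with an unadjusted p under 0.05, RRM2 and CCNE2, were lower.

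Interferon-stimulated genes were higher in 27 of 31 cases, with a median of 0.12, and their medians were 0.02 in experiment 1 and 0.18 in experiment 2. None was called, and 6, or 19.4%, reached an unadjusted p under 0.05, all higher. Over all genes, 49.6% were higher and 2.45% were higher at that p. IFIT2, which binds foreign RNA, was at 17.5 CPM against 8.98 and 8.37 CPM in experiment 1, but at 14.6 against 12.3 and 13.5 CPM in experiment 2. IFI44L showed the reverse, at 10.7 CPM against 10.2 and 8.71 CPM in experiment 1 and at 5.35 against 2.06 and 2.11 CPM in experiment 2. OASL, of the oligoadenylate synthetase family, was at 6.93 and 5.70 CPM against 3.21 to 4.75 CPM (0.53 ± 0.17, SE). Single members thus differed in which experiment carried them.

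Targets of the ERK pathway were lower in 18 of 23 cases, with a median of −0.14 (−0.25 in experiment 1 and −0.06 in experiment 2), and 5, or 21.7%, reached an unadjusted p under 0.05, all lower. Over all genes, 50.4% were lower and 2.33% were lower at that p. EGR1, an immediate early transcription factor, was at 53.2 CPM against 119.2 and 85.7 CPM in experiment 1 and at 143.2 against 151.8 and 253.3 CPM in experiment 2 (−0.71 ± 0.22, SE). FOS, of the AP-1 factor, was at 5.87 CPM against 13.4 and 9.96 CPM and at 14.98 against 15.6 and 21.9 CPM (−0.60 ± 0.22, SE). The controls of experiment 2 also differed from each other in EGR1, and neither tool called any member. JAK-STAT targets, the output of the kinase that drives this line, were lower in 11 of 18 cases with a median of −0.04, and none reached an unadjusted p under 0.05. The same count of 0 held for 27 p53 targets, 15 BCL2 family members and 23 cholesterol synthesis genes. Over all genes 4.78% reached that p in either direction, so a count of 0 in lists this short is near that share.

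The lineage lists of this megakaryoblastic line had median log2 fold changes from −0.12 to 0.03, although most erythroid genes were lower. Of 27 megakaryocyte and platelet genes, 15 were higher and 12 lower with a median of 0.03, and THBS1, PF4 and LAT reached an unadjusted p under 0.05. These made up 11.1% of the list, where 4.78% of all genes reached that p. THBS1, the platelet matrix protein thrombospondin, was at 253.2 CPM against 208.6 and 196.2 CPM and at 73.8 against 52.4 and 61.5 CPM (0.35 ± 0.09, SE). PF4, a platelet chemokine, was at 3.03 CPM against 1.45 and 1.46 CPM in experiment 1 but at 1.31 against 1.09 and 1.33 CPM in experiment 2. Erythroid, heme and red cell membrane genes were lower in 28 of 35 cases, or 80% against 50.4% of all genes, with a median of −0.12, and SLC4A1 was the member with an unadjusted p under 0.05. With ZRSR2 guide 1 the median of the erythroid list against the same controls, which both comparisons share, was −0.13. None of 21 lineage transcription factors reached an unadjusted p under 0.05 with guide 2. VWF, the von Willebrand factor, was at 13.7 CPM with guide 2 against 22.2 and 22.9 CPM in experiment 1. In experiment 2 it was at 22.7 CPM, between non-targeting guide 1 at 11.5 CPM and non-targeting guide 2 at 39.1 CPM. Its arms overlapped, and it was not called with all 6 libraries. Without non-targeting guide 1 of experiment 2, the control below guide 2, edgeR called VWF, at −0.74 with an adjusted p of 0.0328.

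Metallothioneins, small metal-binding proteins, were lower in all 8 tested cases, with a median of −0.39 (−0.50 in experiment 1 and −0.16 in experiment 2). MT1E was at 15.6 and 16.4 CPM against 19.6 to 21.0 CPM and MT2A at 95.4 and 121.6 CPM against 121.2 to 152.9 CPM, the 2 members with an unadjusted p under 0.05, which 2.33% of all genes reached as lower. These genes are near-identical copies, so the sharing of reads among them is uncertain. With ZRSR2 guide 1 the median of these genes against the same controls, which both comparisons share, was −0.37. Of 23 genes of the unfolded protein and ATF4 response, 17 were higher, with a median of 0.12, where 49.6% of all genes were higher. ASNS and PSAT1, enzymes of amino acid synthesis, reached an unadjusted p under 0.05 at log2 fold changes of 0.37 and 0.48. They made up 8.7% of the list, where 2.45% of all genes were higher at that p. With all 6 libraries edgeR called neither. Without non-targeting guide 1 of experiment 2, edgeR called PSAT1, at 0.70 with an adjusted p of 0.0293.

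The direct comparison of guide 2 with guide 1 asks what differed between the 2 ZRSR2 guides. No gene of 15402 was called by edgeR, 486, or 3.16%, had an unadjusted p under 0.05, and DESeq2 called 1, or 0.00649%. That gene was KCNQ1OT1, a long noncoding RNA of an imprinted domain, at 3.82 and 10.1 CPM with guide 2 and at 1.57 and 3.53 CPM with guide 1. The difference was 1.43 ± 0.25 (SE) on the log2 scale, with an adjusted DESeq2 p of 0.0036 and an adjusted edgeR p of 0.823. Its controls, at 2.00 to 7.59 CPM, overlapped both guides, and genes overlap it on the opposite strand.

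ZRSR2 was at 29.5 and 28.2 CPM with guide 1, or 73.1% of the control mean, where guide 2 left 52.7%. Guide 2 minus guide 1 was −0.47 ± 0.13 (SE), with an unadjusted edgeR p of 0.00305 and an adjusted p of 1. TGM1 was at 5.48 and 4.81 CPM with guide 1, above the controls and below both guide 2 libraries, and the difference between the guides was 0.95 ± 0.20 (SE, unadjusted edgeR p of 4.73e-04). PHEX was at 0.956 and 0.360 CPM with guide 1, a difference of 1.21 ± 0.38 (SE). The log2 fold changes against the controls, which the guides share, were −0.45 with guide 1 and −0.93 with guide 2 for ZRSR2, 1.29 and 2.25 for TGM1, and 1.67 and 2.91 for PHEX. In all 3 genes the guide 2 libraries were farther from the controls, although no difference between the guides passed the adjustment. The 3 genes were chosen as markers of the guide 2 comparison with earlier results of these data known. Their order between the guides is therefore no independent evidence.

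Other genes with the smallest p between the guides were KMT2D, a histone methyltransferase, at 296.5 and 311.6 CPM with guide 2 and 215.7 and 194.7 CPM with guide 1 (0.57 ± 0.12, SE), and LOC100129917 (0.77 ± 0.17, SE). RYR3, a calcium release channel, differed by 0.54 ± 0.12 (SE). Lower with guide 2 than with guide 1 were PAQR5, a membrane progesterone receptor (−0.72 ± 0.18, SE), SLC44A2 (−0.39 ± 0.10, SE), NCR3, a receptor of natural killer cells (−0.53 ± 0.14, SE), and CLCA1 (−1.06 ± 0.28, SE). All had an adjusted edgeR p of 1 except KCNQ1OT1. Without guide 2 of experiment 2, edgeR called 1 gene in this comparison, lower with guide 2.

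**Figure D4:**
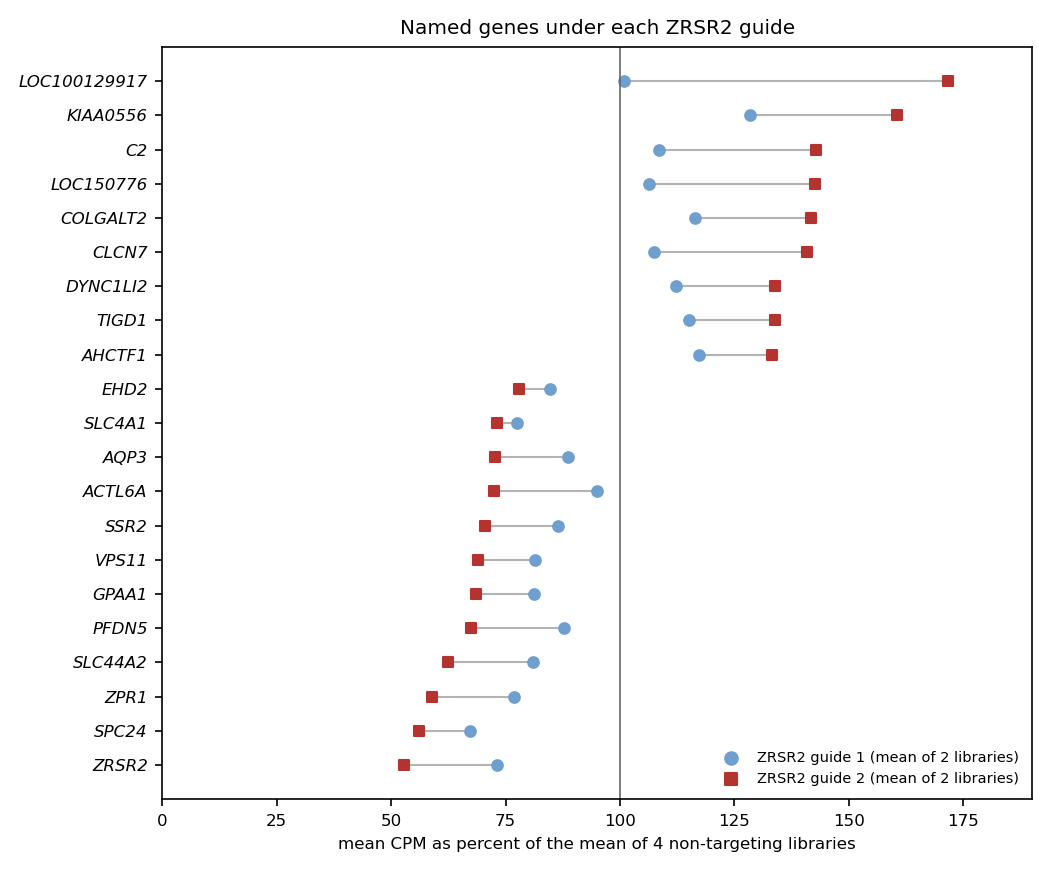
Mean CPM as percent of the mean of the 4 non-targeting libraries (horizontal axis, from 0) for 21 named genes, with squares for ZRSR2 guide 2 and circles for ZRSR2 guide 1. TGM1 and PHEX, at 486% and 671% with guide 2, lie outside the axis and are not drawn. ZRSR2 is at 52.7% with guide 2 and 73.1% with guide 1.

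The effect of guide 2 was also set side by side in the 2 experiments, which share no library. Across all 15281 genes, the log2 ratios to the controls of the same experiment had a correlation of 0.06, and of −0.03 over the 10938 genes with at least 5 CPM in both arms. Genes are not independent replicates, and each ratio rests on 1 guide 2 library. A test of the difference between the experiments called no gene in edgeR, where 849, or 5.56%, had an unadjusted p under 0.05, and 10 in DESeq2, or 0.0654%. The genes with the smallest p were chosen for this difference. LPHN2, an adhesion receptor, was at 14.3 CPM against 6.68 and 7.22 CPM in experiment 1 and at 18.9 against 29.2 and 27.5 CPM in experiment 2. IL1R1, the interleukin 1 receptor, was at 21.0 CPM against 9.14 and 9.80 CPM and at 32.0 against 42.0 and 38.9 CPM. LIF, a cytokine that signals through JAK and STAT3, was at 129.1 CPM against 356.4 and 311.6 CPM in experiment 1, but at 99.0 against 107.4 and 107.4 CPM in experiment 2. In LPHN2 and IL1R1 the sign turned between the experiments, where the controls differed more between experiments than the guide 2 libraries did. With ZRSR2 guide 1, LPHN2 was at 7.64 and 28.95 CPM and IL1R1 at 14.5 and 38.75 CPM in experiments 1 and 2. LIF was at 357.7 and 96.0 CPM with guide 1. Guide 1 lay closer to the controls than guide 2 in both experiments for LPHN2 and IL1R1, and in experiment 1 for LIF. For ZRSR2 and TGM1 the difference between experiments was −0.37 ± 0.19 and 0.26 ± 0.36 (SE), with adjusted edgeR p of 0.951 and 0.988.

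**Figure D5:**
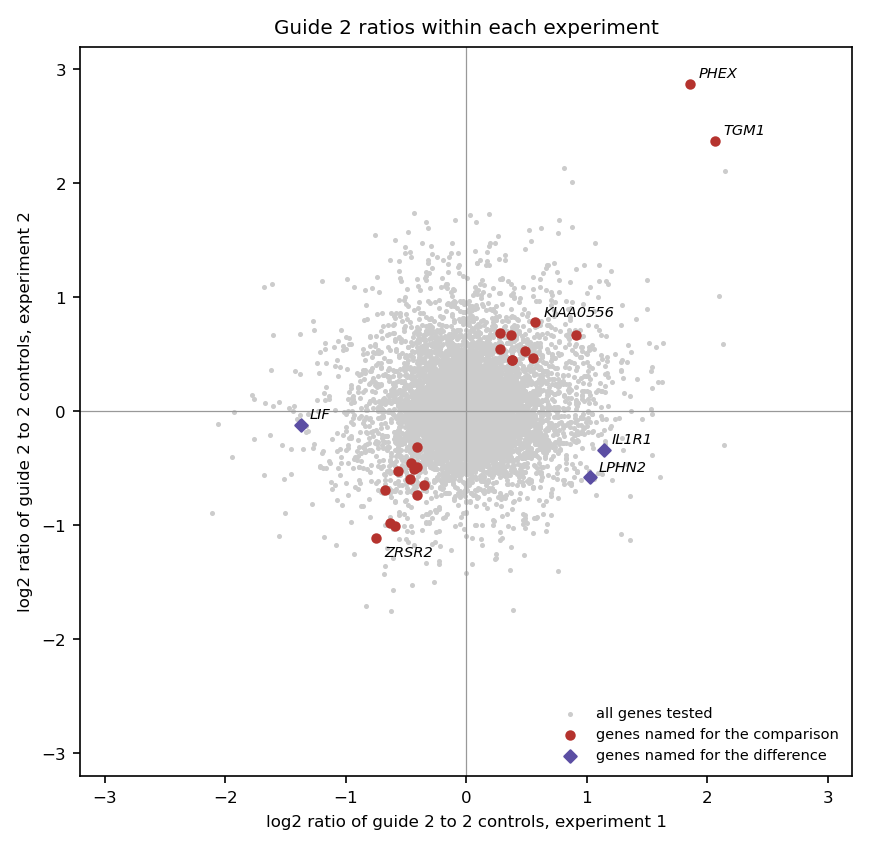
Log2 ratio of the guide 2 library to the mean of its 2 controls in experiment 1 (horizontal axis) and experiment 2 (vertical axis) for all 15281 genes, with named genes in red and the 3 genes named for a difference as diamonds. TGM1 lies at 2.06 and 2.37 and ZRSR2 at −0.75 and −1.11, while all genes together show a correlation of 0.06.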

How the data were processed

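Messenger RNA was sequenced from 8 SET-2 libraries, and the authors deposited expected counts per gene symbol. Per the submitters' processing notes, the tools included RSEM 1.2.30 and cutadapt 1.11, with build hg19. RSEM divides ambiguous reads among transcripts by likelihood, which leaves near-identical genes uncertain. Aligner, annotation and use of strand are not given in the sources used here. Rounding the deposited expected counts changed no value, and 5360 symbols had no count in the 6 libraries.

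Genes were filtered with filterByExpr, which kept 15281 genes and at least 99.975% of counts, and scaled by TMM. Arms were compared by the quasi-likelihood F test of edgeR with the experiment as a block, with Benjamini-Hochberg adjustment over all genes tested and a threshold of 0.05. DESeq2's Wald test was the alternative. The comparison left 3 residual degrees of freedom, and a standard error came from the F statistic. CPM values are TMM-scaled over 8 libraries, and within-experiment log2 ratios added 0.1 CPM. One count was worth 0.0142 to 0.0323 CPM, and these bounds cover counting error only. Software was R 4.3.3, edgeR 4.0.16, DESeq2 1.42.0, Python 3.11.15 and matplotlib 3.10.9.

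Deviations from the arm means correlated at 0.735 to 0.801 in the 4 pairs of a guide 2 and a control library of the same experiment. The arm has 2 libraries, so pairs across experiments give these values with the sign turned and add nothing. The block follows the experiment number in the titles. The common coefficient of biological variation was 0.118 with the block and 0.304 without. No 2 libraries of an arm agreed within sampling noise (smallest chi-square per degree of freedom 3.12).

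The members and lists were chosen with earlier results of these data known. Besides ZRSR2, TGM1 and PHEX, up to 12 genes per direction were named by smallest p: those past the threshold with a mean of 1 CPM, filled with genes of at least 5 CPM in either arm and no overlap. Each list gave up to 4 members of smallest p, 2 genes so chosen are not reported here, guide 2 against guide 1 gave 5 genes per direction, and the difference between experiments gave 3. ZRSR2 guide 3, which the design text lists, was not analysed here. Symbols were matched to GENCODE 29 (GRCh38) for sequences, and 22702 of 25435 matched. Tests were checked on simulated data for the comparison of guide 2 with non-targeting over 15175 genes. In the simulation, 50 genes were changed at each fold of 1.5, 2, 3 and 4. There edgeR recovered 74% of genes changed 1.5-fold and 96% of those changed 2-fold. It made 19 false calls among 204, a larger share than the threshold is set to allow. The recovered shares describe the simulated counts and do not give the power in the real libraries. In those, ZRSR2 at a log2 fold change of −0.93 had an adjusted edgeR p of 0.147.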

Additional observations from a re-analysis of the deposited data

Results flagged for a closer look

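Of 36 groups of 4 control values looked at, 2 held a library set apart from the other 3, where chance flags about 1 in 20 groups. Both were non-targeting guide 1 of experiment 2. Its total was 71521173 expected counts, against 31106042 to 36544665 in the other controls, with a gap of 0.865 of the whole range. It also had 18398 genes with a count, against 17795 to 17825, with a gap of 0.95 of the range. The counts of calls without this library are given with the results.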

How the results depend on the processing

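Over 1084 values recomputed for 87 results, 1014 kept their direction and their side of the threshold, 52 newly passed it, 3 no longer passed, 15 counts moved by over 1.5 times, and 0 reversed. The 1 gene called by edgeR stayed 1 with DESeq2 size factors, no count filter, at least 10 counts in every library, and the legacy dispersion. With all 8 libraries it was 3 (1 higher, 2 lower). With no replicate block, the experiment left out as a pairing term, 0 genes were called and 118 had an unadjusted p under 0.05, against 730. With one library left out at a time, edgeR called between 0 and 33 genes, and DESeq2 with the block, which called 35, between 10 and 170 (chosen after seeing the data): 25 and 21 without guide 2 of experiment 1 and 2, 10 without either control of experiment 1, and 170 and 51 without non-targeting guide 1 and 2 of experiment 2. The 0 came without either guide 2 library, where the lone library is assumed to vary like the controls. The ZRSR2 adjusted p was 6.6e-09 with DESeq2, 0.0309 with all 8 libraries, and 0.0328 to 0.824 with a library left out, its log2 fold change staying −0.93 with DESeq2 and with all 8 libraries, and between −1.11 and −0.75 with a library left out. DESeq2 called 10 genes for the difference between experiments and 1 for guide 2 against guide 1, where edgeR called 0 in both. Without guide 2 of experiment 2 that last count was 1. The cause of these changes was not tested. Genes of few counts, such as PHEX, are limited by depth.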
